A study of Homo sapiens with 15 samples.

Results

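The late response of senescent HT-1080 cells to the kinase inhibitor GNF-7 was measured by RNA sequencing in 6 of the 15 libraries of the study, 3 from cells given 1 uM GNF-7 for 24 h and 3 from cells given the vehicle DMSO for 24 h. These libraries were taken by their labels, and all 18563 genes that passed a filter on low counts were compared between them. HT-1080 is an established line from a human fibrosarcoma, and it was grown in tet-free serum. The senescent cells of every group, vehicle included, had carried an induced, dominant negative form of the telomere protein TRF2 for 6 days. Loss of TRF2 function uncaps telomeres. The other groups, of 3 libraries each, were senescent cells given DMSO for 6 h, senescent cells given 1 uM GNF-7 for 6 h, and cycling cells given DMSO and labelled 6 h. The model is 1 cell line with 1 way of inducing senescence, and no library of cycling cells given GNF-7 was analysed here. The labels call the 3 libraries of a group biological replicates without saying how the cultures were separated. The p-values thus rest on the spread between libraries within groups, taken over all 15 libraries. Whether that is a spread between separate cultures is not known.

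GNF-7 is a tyrosine kinase inhibitor, and the title of the study names GCN2 (gene EIF2AK4), a kinase that senses uncharged tRNA. GCN2 and its related kinases phosphorylate the translation factor eIF2, which slows most protein synthesis and favours translation of the transcription factor ATF4. ATF4, often paired with C/EBP proteins, turns on genes for amino acid synthesis, amino acid uptake and tRNA charging, and this programme is called the integrated stress response (ISR). Senescent cells have left the cell cycle, stay metabolically active and secrete chemokines, cytokines and proteases, known as the senescence-associated secretory phenotype.

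Levels are given as CPM, counts scaled to a common library size,, computed from library sizes with TMM scaling. Genes count as called where the adjusted p was under 0.05 in edgeR's quasi-likelihood test. A value written from A to B CPM gives the mean ± SD of the 3 vehicle libraries at 24 h and then of the 3 GNF-7 libraries at 24 h, and log2 fold changes are GNF-7 over vehicle. TERF2, the gene of TRF2 (ENSG00000132604, GRCh38 chromosome 16, 69355561 to 69408571, minus strand), carries the induced form as well and so bears on the labels. It stood at 58.2 ± 3.65 CPM in cycling cells, at 222, 212 and 226 CPM in the 24 h vehicle libraries and at 128, 138 and 130.0 CPM in the 24 h GNF-7 libraries (log2 fold change -0.73, SE 0.041, edgeR adjusted p 3.53e-24). All 6 senescent libraries at 24 h were thus above the cycling cells, and the GNF-7 libraries were below the vehicle libraries without overlap. The counts hold both the induced and the cell's own transcript. TERF2 shares exon sequence with a neighbouring gene, so its count is uncertain. Such statements, here and below, refer to overlapping exon positions on either strand.

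The 6 libraries held 26809978 to 32116534 counts, and no library stood apart within its group (correlations of log values 0.995 to 0.997). Counts in mitochondrially encoded genes made up 22.6 to 24.1% of a GNF-7 library and 15.1 to 18.7% of a vehicle library at 24 h, a difference of the means of 6.36 percentage points (exact two-sided permutation p 0.1, the smallest that 3 against 3 libraries allow). Without mitochondrial rRNA and tRNA genes the difference was 4.50 points. More genes had at least 1 count with GNF-7, 26476 to 26774 against 24916 to 25189. The part of these shares in the results below was not tested, and scaling to nuclear genes alone left every count of called genes within 1.5 times. In bulk RNA, fewer cells of a type and less RNA per cell cannot be told apart.

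**Figure D1:**
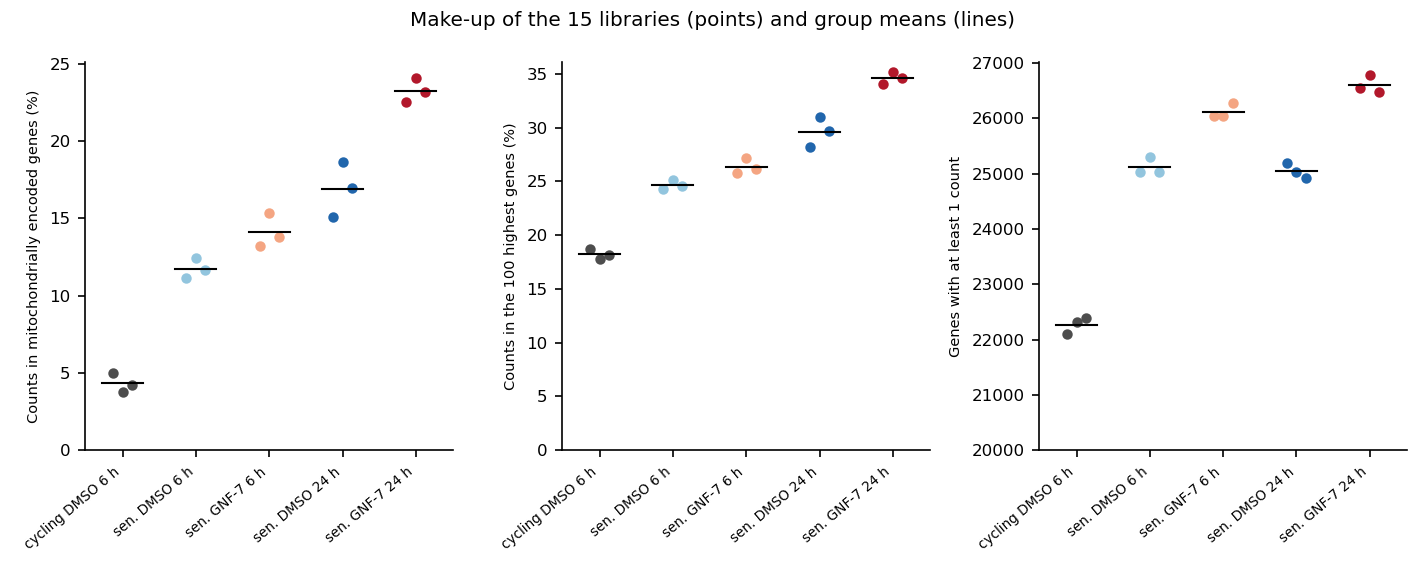
Each point is 1 of the 15 libraries and each line a group mean, for the percentage of counts in mitochondrially encoded genes (left), the percentage in the 100 genes with most counts (middle) and how many genes had any count (right, on an axis that does not start at 0). The 3 GNF-7 libraries at 24 h hold the highest values in each panel, and their mitochondrial shares of 22.6 to 24.1% do not overlap those of the 24 h vehicle libraries.

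The label of the cells was checked against markers. Of 10 mesenchymal markers 8 were tested, with a summed level of 7234 to 7931 CPM in vehicle and 5500.3 to 5808 CPM with GNF-7, while THY1 was at 0 in all 6 libraries. Among them FN1, the matrix protein fibronectin, fell from 1885 ± 90.5 to 860.1 ± 27.2 CPM (log2 fold change -1.13, SE 0.043), CDH2, or N-cadherin, fell from 129.6 ± 5.02 to 57.99 ± 3.70 CPM (log2 fold change -1.16, SE 0.046), and ZEB1, a repressor of epithelial genes, rose from 50.98 ± 2.03 to 78.8 ± 3.72 CPM (log2 fold change 0.63, SE 0.051). Epithelial markers summed to 1.16 to 1.80 CPM in vehicle and 3.92 to 5.68 CPM with GNF-7, with only CLDN4 and ESRP1 tested and CLDN3 and GRHL2 at 0. Blood markers summed to at most 1.97 CPM in any library, with MS4A1 and NKG7 at 0. Endothelial markers summed to 322 to 354 CPM in both groups, nearly all of it in TIE1, EGFL7 and ROBO4, while of 6 tested 3 were called higher and 1 lower with a median of 0.59, and CDH5, KDR, CLDN5 and EMCN did not pass the filter. The part of these levels in the results was not tested. Because CDH2 and ZEB1 overlap exons of another annotated gene, their levels are uncertain.

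After 24 h of GNF-7 10940 of 18563 genes, 58.9%, were called, 29.3% of all genes higher and 29.7% lower. The sizes were unequal: changes of at least 2-fold were rises for 10.3% of genes and falls for 3.92%, and 142 rose but 13 fell by at least 8-fold. Protein-coding and other genes differed in balance. Of 13525 protein-coding genes 3905 rose and 5170 fell, 1078 and 584 of them by at least 2-fold. Of 4762 genes of other types, mostly noncoding RNAs and pseudogenes, 1430 rose and 327 fell, 769 and 139 of them by at least 2-fold. Among the 11305 genes with a mean of at least 5 CPM the 2-fold changes were even, with 450 rises and 439 falls. A fit restricted by that filter, whose scaling shifts the log2 fold changes of shared genes by 0.10, gave 489 rises and 377 falls. Each value below is relative to the TMM scaling over all genes tested. List counts at 24 h given below stand beside the 29.3% of all genes called higher and the 29.7% called lower.

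**Figure D2:**
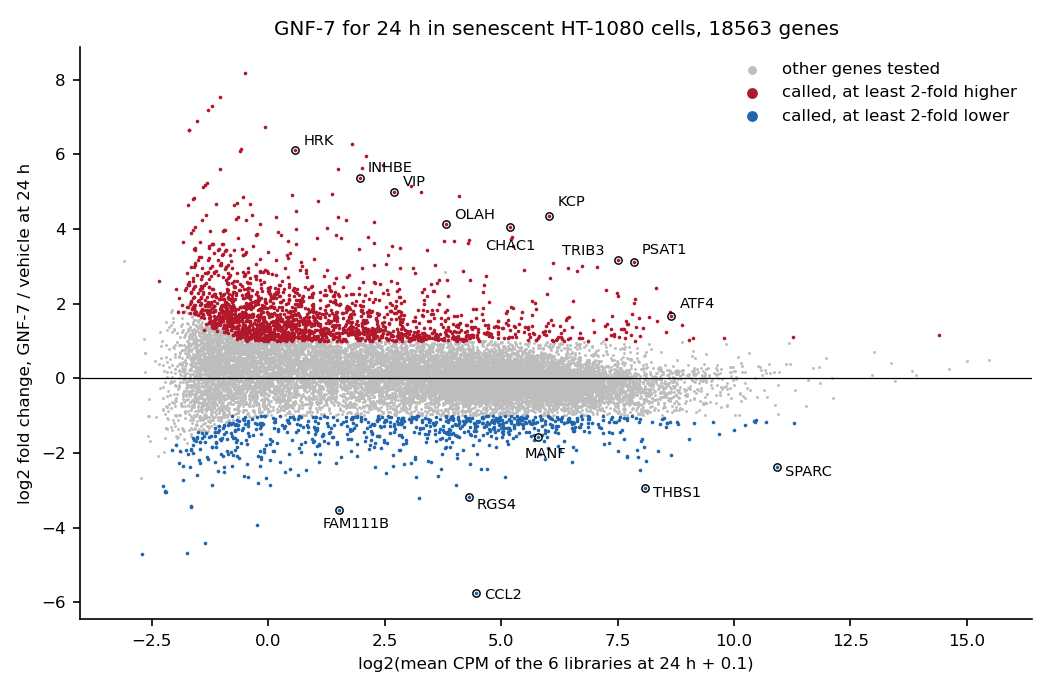
Each point is 1 of the 18563 genes tested, with the log2 of its mean CPM over the 6 libraries at 24 h (plus 0.1) on the x axis and its log2 fold change of GNF-7 over vehicle on the y axis. Red marks the 1917 genes called at least 2-fold higher and blue the 727 called at least 2-fold lower, and CCL2 at -5.75 lies lowest of all.

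CHAC1, KCP, OLAH and CCL2 mark this response. CHAC1 (ENSG00000128965, GRCh38 chromosome 15, 40952962 to 40956519, plus strand) encodes an enzyme that breaks down glutathione and is an ATF4 target. It was at 3.86, 4.34 and 4.30 CPM in the vehicle libraries and 68.1, 69.7 and 68.9 CPM in the GNF-7 libraries (log2 fold change 4.05, SE 0.082, edgeR adjusted p 6.72e-47). Every GNF-7 library lay far above every vehicle library. The gene was at 9.98 ± 1.21 CPM in cycling cells and already at 60.1 ± 2.35 CPM after 6 h of GNF-7, so most of its rise was early, with a difference between the 24 h and 6 h effects of 0.64 on the log2 scale (edgeR adjusted p 2.80e-05).

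KCP (ENSG00000135253, GRCh38 chromosome 7, 128862451 to 128910719, minus strand) encodes a secreted chordin-like regulator of bone morphogenetic protein (BMP) signalling. It was at 4.82, 6.88 and 6.81 CPM in the vehicle libraries and 117, 128 and 128 CPM in the GNF-7 libraries (log2 fold change 4.35, SE 0.18, edgeR adjusted p 6.27e-10). At 6 h the means were 7.59 ± 2.11 CPM in vehicle and 23.7 ± 4.10 CPM with GNF-7, so the level with GNF-7 was several-fold higher at the late time. OLAH (ENSG00000152463, GRCh38 chromosome 10, 15032227 to 15073852, plus strand) encodes a thioesterase that releases free fatty acids from fatty acid synthase. It was at 1.28, 1.66 and 1.55 CPM in the vehicle libraries and 25.2, 30.04 and 23.9 CPM in the GNF-7 libraries (log2 fold change 4.15, SE 0.15, edgeR adjusted p 7.57e-33). Cycling cells held 0.125 ± 0.0786 CPM, the 6 h vehicle cells 0.989 ± 0.284 CPM and the 6 h GNF-7 cells 2.93 ± 0.283 CPM. Both genes were thus raised by senescence, raised again by GNF-7 at 6 h, and raised most at 24 h. Exons of KCP overlap another gene, and this count is uncertain to that degree.

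CCL2 (ENSG00000108691, GRCh38 chromosome 17, 34255218 to 34257203, plus strand) encodes a chemokine that attracts monocytes and is a common member of the senescence secretome. It was at 47.1, 39.2 and 42.6 CPM in the vehicle libraries and 0.868, 0.747 and 0.764 CPM in the GNF-7 libraries (log2 fold change -5.75, SE 0.13, edgeR adjusted p 5.38e-45), and the groups did not overlap. Cycling cells held 15.03 ± 0.128 CPM. The GNF-7 level at 24 h was therefore below that of cycling cells as well as below that of senescent vehicle cells, and it was also below the 4.31 ± 0.471 CPM found after 6 h of GNF-7.

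**Figure D3:**
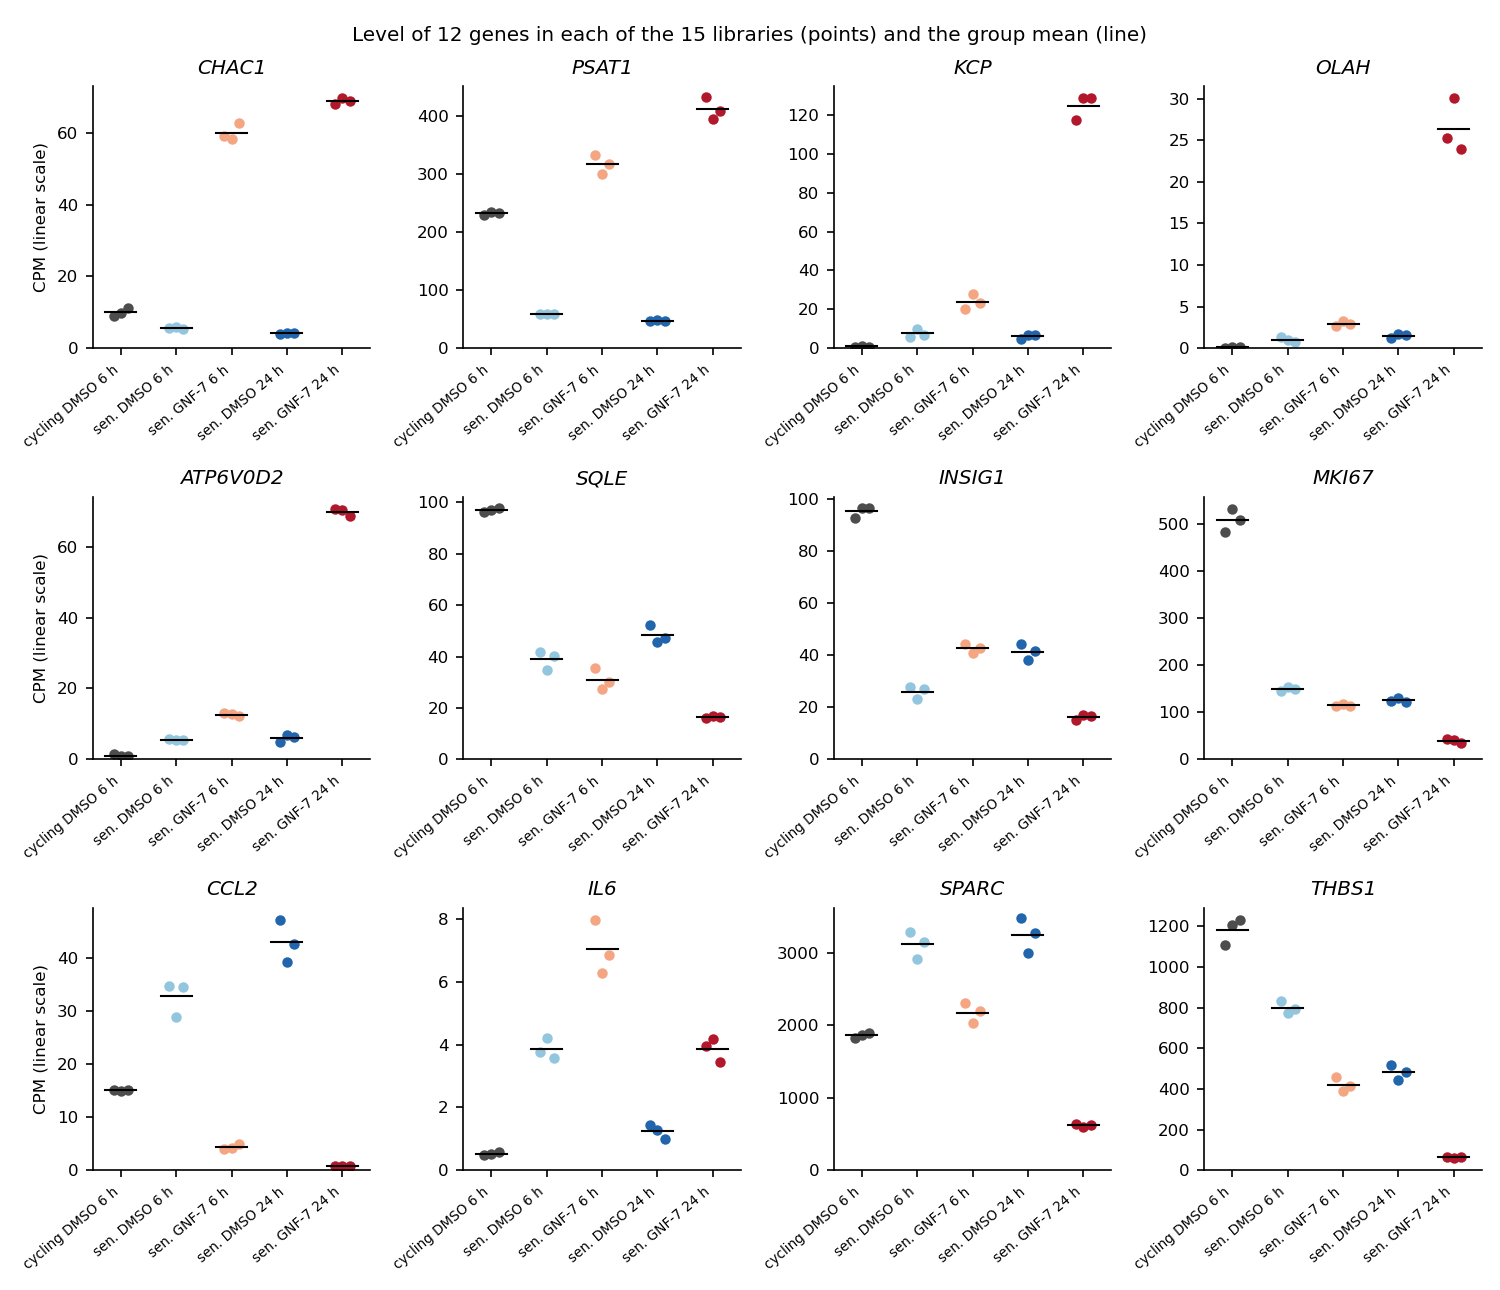
Levels in CPM on linear axes from 0 for 12 genes, with 1 point for each of the 15 libraries and a line for each group mean. CHAC1 and PSAT1 are already high after 6 h of GNF-7, PSAT1 at 317 CPM against 413 CPM at 24 h, whereas KCP, OLAH, ATP6V0D2, SQLE, MKI67, SPARC and THBS1 are at their extreme after 24 h, INSIG1 is higher at 6 h and lower at 24 h, and IL6 is highest after 6 h.

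The other protein-coding genes with the largest rises at a mean of at least 5 CPM came from several classes. VIP, a secreted neuropeptide, rose from 0.390 ± 0.137 to 12.4 ± 0.243 CPM (log2 fold change 4.99, SE 0.24). KLHDC7B, a kelch-domain protein, rose from 0.595 ± 0.164 to 18.6 ± 1.14 CPM (log2 fold change 4.98, SE 0.20). NUPR1, a small stress-induced chromatin protein, rose from 5.07 ± 0.503 to 70.1 ± 1.86 CPM (log2 fold change 3.79, SE 0.085). The secreted PAPPA2, a protease that cleaves insulin-like growth factor (IGF) binding proteins, rose from 5.21 ± 1.07 to 68.6 ± 3.32 CPM (log2 fold change 3.72, SE 0.093). OSCAR, a receptor for collagen on osteoclasts, rose from 2.79 ± 0.802 to 36.6 ± 1.40 CPM (log2 fold change 3.71, SE 0.12), and ATP6V0D2, a proton pump subunit also typical of osteoclasts, rose from 5.98 ± 1.04 to 69.96 ± 1.09 CPM (log2 fold change 3.56, SE 0.089). HEY1, a repressor induced by Notch, rose from 1.98 ± 0.314 to 25.4 ± 2.30 CPM (log2 fold change 3.67, SE 0.14), and BEX2 rose from 2.23 ± 0.698 to 29.2 ± 1.12 CPM (log2 fold change 3.69, SE 0.14). ADM2, a peptide of the calcitonin family, rose from 2.94 ± 0.616 to 36.04 ± 2.24 CPM (log2 fold change 3.63, SE 0.12). Each of these genes was picked on condition that its 24 h groups did not overlap, so that separation is not a result. Over all genes 1 group lay wholly above the other for 63.2%. ATP6V0D2 shares exon sequence with a neighbouring gene, so its count is uncertain.

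The largest falls after CCL2 held signalling, matrix and S-phase genes. FOS, the immediate early transcription factor, fell from 16.8 ± 6.99 to 1.82 ± 0.425 CPM (log2 fold change -3.21, SE 0.59). RGS4, which dampens G-protein signals, fell from 35.3 ± 2.07 to 3.91 ± 0.538 CPM (log2 fold change -3.18, SE 0.087). The matrix genes THBS1, LRRC17 and VCAN fell by 2.94, 2.87 and 2.61 on the log2 scale and are given with the matrix below. MYBL1, a MYB-family transcription factor, fell from 58.2 ± 0.0704 to 9.25 ± 0.715 CPM (log2 fold change -2.65, SE 0.067). DTL, which marks replication proteins for destruction, fell from 15.4 ± 0.4215 to 2.47 ± 0.583 CPM (log2 fold change -2.64, SE 0.10), and RRM2, a subunit of ribonucleotide reductase, fell from 43.3 ± 3.37 to 8.04 ± 0.490 CPM (log2 fold change -2.43, SE 0.063). GPRC5A, an orphan receptor, fell from 427 ± 24.9 to 77.3 ± 2.26 CPM (log2 fold change -2.46, SE 0.048), and PIK3R3, a regulatory subunit of PI3 kinase, fell from 22.02 ± 0.927 to 4.05 ± 0.142 CPM (log2 fold change -2.44, SE 0.11). Because GPRC5A, LRRC17, PIK3R3, RRM2, THBS1 and VCAN overlap exons of another annotated gene, their levels are uncertain.

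The kinases and factors that start the ISR were mostly lower or not called, while the phosphatase subunit that ends it rose. Of 14 genes of this group 1 was called higher and 9 lower (29.3% and 29.7% of all genes), with a median of -0.21 against 0.04 over all genes. GCN2's gene EIF2AK4 was at 118, 118 and 113 CPM in the vehicle libraries and 112, 106 and 98.4 CPM in the GNF-7 libraries, ranges that do not overlap (log2 fold change -0.15, SE 0.043, edgeR adjusted p 0.00277). That call was lost without GNF-7 replicate 3 (-0.10) and when only genes averaging 5 CPM were tested (-0.05). GCN1, which binds GCN2 on stalled ribosomes, fell from 259 ± 3.53 to 193 ± 8.24 CPM (log2 fold change -0.43, SE 0.037). EIF2AK3, the endoplasmic reticulum (ER) kinase PERK, fell from 17.6 ± 3.19 to 9.95 ± 1.06 CPM (log2 fold change -0.83, SE 0.10). EIF2AK1 and EIF2AK2, which encode the haem- and double-stranded-RNA-sensing kinases, had log2 fold changes of -0.03 and -0.11 and were not called, though EIF2AK2 was called lower without vehicle replicate 1 (-0.16) or GNF-7 replicate 1 (-0.14), with no filter (-0.13) and with scaling to nuclear genes (-0.12). PPP1R15A (GADD34), which directs the phosphatase to eIF2, rose from 112 ± 3.94 to 304 ± 9.77 CPM (log2 fold change 1.44, SE 0.040). Exons of EIF2AK1, EIF2AK2 and EIF2AK3 overlap another gene, and these counts are uncertain to that degree.

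Downstream of eIF2, 10 of 14 transcription factors and their partners rose and 2 fell, with a median of 1.37 at 24 h and 1.33 at 6 h. ATF4 was at 187, 194 and 194 CPM in the vehicle libraries and 618, 599 and 617 CPM in the GNF-7 libraries (log2 fold change 1.67, SE 0.036, edgeR adjusted p 1.65e-45). DDIT3, which encodes the death-linked factor CHOP, was at 25.1, 21.7 and 23.5 CPM in the vehicle libraries and 192, 188 and 191 CPM in the GNF-7 libraries (log2 fold change 3.02, SE 0.051, edgeR adjusted p 4.49e-51). TRIB3, a pseudokinase that feeds back on ATF4 and AKT, was at 35.6, 37.8 and 34.9 CPM in the vehicle libraries and 325, 318 and 342 CPM in the GNF-7 libraries (log2 fold change 3.18, SE 0.046, edgeR adjusted p 8.30e-55). For each of these genes every GNF-7 library lay several-fold above every vehicle library. CEBPG, a dimer partner of ATF4, rose from 21.96 ± 1.03 to 105 ± 1.94 CPM (log2 fold change 2.26, SE 0.053), CEBPB rose from 82.8 ± 8.14 to 226 ± 15.2 CPM (log2 fold change 1.45, SE 0.093), and ATF3 rose from 21.2 ± 1.18 to 51.96 ± 2.14 CPM (log2 fold change 1.29, SE 0.064). The called falls were CEBPD (-0.56) and ATF5 (-0.37). ATF5 is known as a target controlled largely at translation. ATF5, CEBPB and DDIT3 share exon sequence with a neighbouring gene, so their counts are uncertain.

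Genes for amino acid synthesis rose in 14 of 23 cases and fell in 7 (29.3% and 29.7% of all genes). Of the rises 12 were at least 2-fold. The serine pathway rose as a block. PHGDH, its first enzyme, was at 28.7, 30.5 and 30.2 CPM in the vehicle libraries and 237, 238 and 236 CPM in the GNF-7 libraries (log2 fold change 2.99, SE 0.046, edgeR adjusted p 1.78e-53). PSAT1, its next enzyme, was at 47.6, 47.9 and 47.4 CPM in the vehicle libraries and 433, 396 and 410.0 CPM in the GNF-7 libraries (log2 fold change 3.12, SE 0.043, edgeR adjusted p 1.49e-55). PSPH, its last, rose from 26.5 ± 0.448 to 68.5 ± 2.43 CPM (log2 fold change 1.37, SE 0.059). The mitochondrial folate enzymes that use serine also rose, SHMT2 from 112 ± 5.73 to 309 ± 4.28 CPM (log2 fold change 1.46, SE 0.040), MTHFD2 from 64.3 ± 3.30 to 298 ± 10.1 CPM (log2 fold change 2.21, SE 0.043) and ALDH1L2 from 14.6 ± 1.05 to 125 ± 3.79 CPM (log2 fold change 3.09, SE 0.062). Asparagine synthetase, ASNS, rose from 1.14 ± 0.175 to 12.9 ± 0.924 CPM (log2 fold change 3.49, SE 0.17), and CTH, which makes cysteine from cystathionine, rose from 1.72 ± 0.161 to 5.99 ± 0.857 CPM (log2 fold change 1.80, SE 0.17). PCK2, a mitochondrial enzyme that makes phosphoenolpyruvate, rose from 19.99 ± 2.18 to 153 ± 5.31 CPM (log2 fold change 2.94, SE 0.056). Against this direction PYCR3, a proline synthesis enzyme, fell from 14.9 ± 0.801 to 9.58 ± 1.34 CPM (log2 fold change -0.63, SE 0.094), while PYCR1 rose from 38.6 ± 1.03 to 92.3 ± 4.39 CPM (log2 fold change 1.26, SE 0.051). Because ALDH1L2, ASNS, MTHFD2, PYCR1 and SHMT2 overlap exons of another annotated gene, their levels are uncertain.

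Among 21 amino acid transporters 11 rose and 5 fell (29.3% and 29.7% of all genes). SLC7A11, the cystine importer, was at 22.2, 26.4 and 23.1 CPM in the vehicle libraries and 176, 166 and 180.2 CPM in the GNF-7 libraries (log2 fold change 2.87, SE 0.054, edgeR adjusted p 5.64e-47). SLC7A5 and SLC3A2, which together form the large neutral amino acid carrier, rose from 87.2 ± 1.03 to 379 ± 14.4 CPM (log2 fold change 2.12, SE 0.039) and from 105 ± 3.27 to 304 ± 12.3 CPM (log2 fold change 1.54, SE 0.039). SLC6A9, a glycine transporter, rose from 10.6 ± 0.745 to 78.8 ± 2.69 CPM (log2 fold change 2.90, SE 0.066), and SLC1A4, which carries serine and alanine, rose from 7.45 ± 0.387 to 42.3 ± 0.518 CPM (log2 fold change 2.50, SE 0.077). The glutamate transporter SLC1A3 went the other way and fell from 42.2 ± 3.58 to 18.8 ± 0.175 CPM (log2 fold change -1.16, SE 0.065), and SLC38A2, a glutamine carrier, fell by 0.27 on the log2 scale. Exons of SLC6A9, SLC7A11 and SLC7A5 overlap another gene, and these counts are uncertain to that degree.

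The enzymes that charge tRNA split by compartment and by amino acid. Of 20 cytosolic synthetases 12 rose and 8 fell (29.3% and 29.7% of all genes), and none was left uncalled. The largest rises were WARS1 for tryptophan, from 101 ± 1.38 to 542 ± 11.3 CPM (log2 fold change 2.43, SE 0.037), GARS1 for glycine, from 178 ± 7.09 to 614 ± 28.5 CPM (log2 fold change 1.78, SE 0.038), and AARS1 for alanine, from 141 ± 2.12 to 438 ± 2.16 CPM (log2 fold change 1.63, SE 0.036). Those that fell included FARSB (-0.65), FARSA (-0.57), VARS1 (-0.51), HARS1 (-0.51), RARS1 (-0.44), QARS1 (-0.22) and KARS1 (-0.19), as log2 fold changes. The 17 mitochondrial synthetases were mostly lower, with 11 falls and 1 rise (29.7% and 29.3% of all genes). Their median was -0.42, and the rise was CARS2 (0.43). Exons of CARS2, FARSA, GARS1, HARS1, KARS1, QARS1 and WARS1 overlap those of a neighbouring gene on either strand, so their counts are uncertain.

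Promoters of these genes were searched for the ATF4 with C/EBP element spelled TGATGNAA, on both strands, in the 250 bases before and 50 after each RefSeq gene start (GRCh38.p14). The element was in 37.5% of 16 cytosolic synthetase promoters (AARS1, CARS1, IARS1, MARS1, NARS1 and TARS1), 22.2% of 18 transporter promoters and 21.4% of 14 amino acid synthesis promoters. The element was in 1 of 11 promoters of ISR transcription factors and in 1 of 14 of mitochondrial synthetases. It was in 1.92% of the promoters of the genes tested, in 3.67% of all 27305 promoters and in 4.86% and 2.72% of those of genes called at least 2-fold higher and lower. Within the ISR lists it was in 26.9% of the promoters of members that rose at least 2-fold and in 21.2% of those of the other members, shares that were close. ATF4, DDIT3, TRIB3 and PSAT1 hold no such letters in this window, which says nothing of sites elsewhere. The 5 stretches shown are those of members with large rises, read 5′ to 3′ on the strand of the gene from RefSeq, with the element in capitals.
CHAC1: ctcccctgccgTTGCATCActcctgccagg
ASNS: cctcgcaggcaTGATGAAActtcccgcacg
AARS1: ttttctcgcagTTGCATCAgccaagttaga
ATF3: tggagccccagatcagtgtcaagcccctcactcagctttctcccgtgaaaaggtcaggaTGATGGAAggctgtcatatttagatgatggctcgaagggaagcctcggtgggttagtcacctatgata
HRK: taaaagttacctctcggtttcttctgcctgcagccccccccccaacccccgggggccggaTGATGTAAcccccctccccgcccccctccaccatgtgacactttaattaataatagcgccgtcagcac

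They lie at chr15:40953251-40953280, plus strand for CHAC1, chr7:97872458-97872487, minus strand for ASNS, chr16:70289675-70289704, minus strand for AARS1, chr1:212565157-212565283, plus strand for ATF3 and chr12:116881449-116881576, minus strand for HRK. CHAC1 and AARS1 carry the reverse form, 209 and 187 bases before the RefSeq start, and the other stretches carry the forward form, 68, 191 and 75 bases before it. The CHAC1, ASNS and AARS1 stretches also lie in annotated GENCODE exons. A match is a description of the letters and not evidence of binding.

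Brakes on the growth kinase mTORC1 rose in 5 of 10 cases and fell in 2 (29.3% and 29.7% of all genes), and in 4 and 3 without GNF-7 replicate 1. SESN2, a leucine sensor, rose from 79.00 ± 1.32 to 252 ± 11.7 CPM (log2 fold change 1.67, SE 0.042), DDIT4 (REDD1) rose from 15.6 ± 0.485 to 58.9 ± 3.03 CPM (log2 fold change 1.92, SE 0.064), and EIF4EBP1, which blocks cap-dependent translation, rose from 75.3 ± 2.28 to 178 ± 7.07 CPM (log2 fold change 1.24, SE 0.043). The falls were SESN3 (-0.47) and SESN1 (-0.17), relatives of SESN2, as log2 fold changes. The SESN3 call was lost without vehicle replicate 1 or 2 or GNF-7 replicate 2 or 3 (-0.45 to -0.34) and the SESN1 call when only genes averaging 5 CPM were tested (-0.068). The rise of DDIT4 was larger at 6 h (2.48) than at 24 h, with a difference of -0.55 (edgeR adjusted p 1.33e-06). Because DDIT4, SESN1 and SESN3 overlap exons of another annotated gene, their levels are uncertain.

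Secreted stress factors rose in 8 of 13 cases and fell in 3 (29.3% and 29.7% of all genes). Of the rises 3 were at least 2-fold. The number of rises was 7 in DESeq2, in limma voom, with RLE size factors, with scaling to nuclear genes and with no filter. Leaving out any 24 h library other than GNF-7 replicate 2 also gave 7. INHBE, an activin subunit made under ER stress, was at 0.0638, 0.247 and 0.232 CPM in the vehicle libraries and 7.48, 6.76 and 7.97 CPM in the GNF-7 libraries (log2 fold change 5.36, SE 0.28, edgeR adjusted p 1.48e-25). The GNF-7 libraries held many times the vehicle level, and even cycling cells were at 3.01 ± 0.319 CPM. VEGFA, which drives vessel growth, rose from 633 ± 4.54 to 1191 ± 56.7 CPM (log2 fold change 0.91, SE 0.035), while its relative VEGFC fell from 80.5 ± 5.35 to 30.8 ± 2.77 CPM (log2 fold change -1.39, SE 0.054). GDF15, a stress hormone, rose from 877 ± 24.98 to 1299 ± 51.2 CPM (log2 fold change 0.57, SE 0.034). FGF21, another ATF4 target, was near 0, with 1, 1 and 4 counts in the GNF-7 libraries and 0 in each vehicle library, and was not tested. Exons of VEGFA overlap another gene, and this count is uncertain to that degree.

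Oxidative stress genes were called higher more often at 24 h than at 6 h. Of 22 genes for NRF2 and glutathione 15 rose and 2 fell, against 6 and 5 at 6 h, when 17.9% of all genes were called higher and 21.4% lower. The difference between the times was called higher for 11 of them and lower for 3, against 12.8% and 18.0% of all genes. FTH1, the ferritin heavy chain that stores iron, was at 1574, 1556 and 1587 CPM in the vehicle libraries and 3146, 2904 and 3111 CPM in the GNF-7 libraries (log2 fold change 0.96, SE 0.033, edgeR adjusted p 9.56e-35). Its log2 fold change was 0.27 at 6 h and larger by 0.69 at 24 h (edgeR adjusted p 1.66e-19). HMOX1, which degrades haem and was at 0.75 on the log2 scale at 6 h, rose from 97.6 ± 1.02 to 186 ± 6.05 CPM (log2 fold change 0.93, SE 0.042), and OSGIN1, a growth inhibitor, rose from 11.7 ± 1.23 to 29.7 ± 0.887 CPM (log2 fold change 1.35, SE 0.092). GCLC and GCLM, the subunits of the rate-limiting enzyme of glutathione synthesis, rose from 27.6 ± 1.11 to 52.01 ± 2.12 CPM (log2 fold change 0.91, SE 0.060) and from 46.6 ± 1.07 to 69.2 ± 2.21 CPM (log2 fold change 0.57, SE 0.050). CHAC2, the relative of CHAC1, fell from 4.87 ± 0.367 to 2.38 ± 0.470 CPM (log2 fold change -1.03, SE 0.16). FTH1 also has processed pseudogenes, with which reads could be shared. FTH1, GCLC and OSGIN1 share exon sequence with a neighbouring gene, so their counts are uncertain.

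Genes of the BCL2 family, which set the threshold for apoptosis, changed in 6 cases upward and 3 downward of 16, a share near the 58.9% called over all genes. HRK, a BH3-only killer protein, had the largest relative rise. It had 80, 92 and 77 counts in the GNF-7 libraries and 1, 2 and 0 in the vehicle libraries, a ratio of 78.2 (95% interval 26.4 to 382, for counting error only). Its level remained low at 2.74 ± 0.223 CPM. The pro-survival BCL2A1 rose from 0.307 ± 0.149 to 2.75 ± 0.285 CPM (log2 fold change 3.11, SE 0.31). The BH3-only genes BBC3 (PUMA), PMAIP1 (NOXA) and BCL2L11 (BIM) rose by 0.40, 0.38 and 0.28 on the log2 scale. For BCL2L11 the value at 6 h was 1.18, and the 24 h effect was lower by a difference of -0.90 (edgeR adjusted p 3.92e-10). BID, which links death receptors to mitochondria, fell from 38.98 ± 2.38 to 23.7 ± 0.559 CPM (log2 fold change -0.71, SE 0.061). Because BBC3 and BCL2L11 overlap exons of another annotated gene, their levels are uncertain.

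Of 11 death receptor genes 6 fell and 1 rose (29.7% and 29.3% of all genes). The rise was TNFRSF10A, or DR4, at 0.0778 ± 0.0683 CPM in vehicle and 0.351 ± 0.256 CPM with GNF-7, and its call was lost in limma voom (1.94), with no filter (2.05) and without vehicle replicate 3 (1.55). It did not pass the filter in the fit of the compared groups alone or without GNF-7 replicate 2 or 3. TNFRSF10B, or DR5, a known CHOP target, fell from 911 ± 27.2 to 771 ± 1.51 CPM (log2 fold change -0.24, SE 0.033). FAS fell from 119 ± 6.39 to 99.00 ± 4.29 CPM (log2 fold change -0.26, SE 0.044) although its value at 6 h was 0.33, and TNFRSF1A, the tumour necrosis factor receptor, fell from 241 ± 9.73 to 126 ± 2.90 CPM (log2 fold change -0.94, SE 0.039). CASP8, the caspase these receptors act through, fell from 31.1 ± 0.722 to 26.5 ± 1.64 CPM (log2 fold change -0.23, SE 0.065), a call lost when only genes averaging 5 CPM were tested (-0.13). Exons of FAS, TNFRSF10A and TNFRSF10B overlap another gene, and these counts are uncertain to that degree.

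Protein-folding genes did not follow the ISR genes. In the ER list 7 of 22 rose and 12 fell (29.3% and 29.7% of all genes). HSPA5 (BiP), the main ER chaperone, was at 1083, 952 and 1021 CPM in the vehicle libraries and 1371, 1211 and 1273 CPM in the GNF-7 libraries (log2 fold change 0.34, SE 0.045, edgeR adjusted p 1.40e-07). CALR, or calreticulin, was at 2440.0, 2149 and 2293 CPM in the vehicle libraries and 1040.0, 1004 and 1032 CPM in the GNF-7 libraries (log2 fold change -1.16, SE 0.036, edgeR adjusted p 5.98e-36). HSP90B1 (GRP94) was at 1454, 1323 and 1359 CPM in the vehicle libraries and 748, 677 and 670.2 CPM in the GNF-7 libraries (log2 fold change -0.98, SE 0.038, edgeR adjusted p 7.43e-28). Chaperones of the same compartment thus moved in opposite directions. MANF, a secreted ER stress factor, fell from 82.2 ± 4.91 to 27.8 ± 1.49 CPM (log2 fold change -1.57, SE 0.053), SDF2L1, a BiP cofactor, fell from 15.95 ± 0.335 to 6.96 ± 1.18 CPM (log2 fold change -1.20, SE 0.10), and PDIA4, a disulphide isomerase, fell from 252 ± 17.3 to 129 ± 4.23 CPM (log2 fold change -0.97, SE 0.042). The sensor gene ERN1 (IRE1) rose from 12.3 ± 0.647 to 36.5 ± 0.897 CPM (log2 fold change 1.58, SE 0.073), its target XBP1 rose from 47.2 ± 2.17 to 117 ± 1.02 CPM (log2 fold change 1.31, SE 0.047), and HERPUD1, which helps degrade misfolded proteins, rose from 74.9 ± 7.03 to 131 ± 4.62 CPM (log2 fold change 0.80, SE 0.046). CALR and HSP90B1 share exon sequence with a neighbouring gene, so their counts are uncertain.

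Cytosolic chaperones fell. Of 14 heat shock genes 11 fell and 2 rose (29.7% and 29.3% of all genes). Their median was -0.54 at 24 h and -0.46 at 6 h. HSPA8, the constitutive HSP70, was at 1892, 2025 and 1910.4 CPM in the vehicle libraries and 928, 873 and 885 CPM in the GNF-7 libraries (log2 fold change -1.12, SE 0.034, edgeR adjusted p 1.12e-37). HSP90AB1 and HSP90AA1 fell from 1375 ± 36.98 to 901 ± 24.98 CPM (log2 fold change -0.61, SE 0.034) and from 1164 ± 18.6 to 807 ± 31.6 CPM (log2 fold change -0.53, SE 0.035), and BAG3, an HSP70 cofactor, fell from 175 ± 7.27 to 106 ± 0.919 CPM (log2 fold change -0.73, SE 0.039). The rises were HSPB1, a small heat shock protein, from 1.63 ± 0.338 to 5.39 ± 1.14 CPM (log2 fold change 1.73, SE 0.29), and HSF1, the factor that drives the group, from 113 ± 3.36 to 129 ± 8.32 CPM (log2 fold change 0.19, SE 0.043). HSPA1A, the inducible HSP70, had log2 fold changes of -1.48 at 6 h and -0.71 at 24 h, a difference of 0.77 (edgeR adjusted p 1.68e-05), and it has the near-identical copy HSPA1B, so its count is uncertain. Because HSF1, HSP90AA1 and HSPA8 overlap exons of another annotated gene, their levels are uncertain.

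Sterol genes fell late. These genes are turned on by SREBP2 when sterols are scarce. Of 24 genes 22 fell at 24 h and 1 rose, with a median of -1.03. At 6 h 4 were lower and 5 higher, with a median of -0.02. The difference between the times was called lower for 22 of 24, against 18.0% of all genes. The gene called higher, TM7SF2 (0.34), lost its call in DESeq2 (0.33), in limma voom (0.31) and without vehicle replicate 1 or 3 or GNF-7 replicate 2 or 3 (0.21 to 0.30). Exons of TM7SF2 overlap another gene, and this count is uncertain to that degree.

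INSIG1, which holds SREBP in the ER when sterols are plentiful, was at 44.5, 38.02 and 41.6 CPM in the vehicle libraries and 14.9, 16.9 and 16.6 CPM in the GNF-7 libraries (log2 fold change -1.36, SE 0.067, edgeR adjusted p 1.85e-26). At 6 h it had moved the other way, from 25.9 ± 2.38 CPM to 42.6 ± 1.86 CPM, a log2 fold change of 0.72 (difference -2.08, edgeR adjusted p 2.55e-27). SQLE, the squalene epoxidase, fell from 48.4 ± 3.36 to 16.4 ± 0.502 CPM (log2 fold change -1.56, SE 0.073), and MSMO1, a sterol demethylation enzyme, fell from 77.00 ± 5.76 to 27.1 ± 1.14 CPM (log2 fold change -1.51, SE 0.057). SREBF2 itself, the gene of SREBP2, fell from 209 ± 1.28 to 110.0 ± 6.997 CPM (log2 fold change -0.92, SE 0.043). Senescence had already lowered each of these genes. SREBF2 shares exon sequence with a neighbouring gene, so its count is uncertain.

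Genes for fatty acid synthesis were also mostly lower. Of 16 genes 13 fell and 3 rose, with a median of -0.70 at 24 h and -0.05 at 6 h. ELOVL6, which lengthens palmitate, fell from 31.7 ± 1.59 to 11.97 ± 1.96 CPM (log2 fold change -1.41, SE 0.076), the desaturases FADS1, FADS2 and SCD fell by 1.31, 1.20 and 0.91 on the log2 scale, and FASN, the synthase itself, fell from 295 ± 2.85 to 183 ± 9.82 CPM (log2 fold change -0.68, SE 0.037). The rises were OLAH, whose product acts on fatty acid synthase, ACSS2, which makes acetyl-CoA from acetate, from 21.2 ± 1.51 to 35.1 ± 1.15 CPM (log2 fold change 0.72, SE 0.071), and GPAM, an acyltransferase of triglyceride synthesis, from 11.1 ± 0.591 to 12.99 ± 1.30 CPM (log2 fold change 0.23, SE 0.097). The GPAM call was lost in DESeq2 (0.22), in limma voom (0.22), with no filter (0.20) and without vehicle replicate 2 or 3 or GNF-7 replicate 1 or 3 (0.15 to 0.23). Among genes for sterol export the transporter ABCA1 rose from 21.7 ± 1.53 to 38.9 ± 2.05 CPM (log2 fold change 0.84, SE 0.071) and APOE, a lipid carrier, rose from 0.644 ± 0.269 to 1.34 ± 0.309 CPM (log2 fold change 1.04, SE 0.40), while LPCAT3, a phospholipid remodelling enzyme, fell from 30.6 ± 2.19 to 16.6 ± 1.31 CPM (log2 fold change -0.88, SE 0.075). The APOE call was lost without vehicle replicate 2 (0.77) or GNF-7 replicate 2 (0.84). Because APOE, FADS1, FADS2 and LPCAT3 overlap exons of another annotated gene, their levels are uncertain.

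The remaining expression of cell cycle genes in these senescent cells was lower after 24 h of GNF-7. Of 41 DNA replication genes 36 fell and 2 rose (median -0.84, against -0.29 at 6 h). All 32 mitosis genes fell (median -1.09, against -0.25 at 6 h), and the fall was larger at 24 h by the test of the difference for 31 of them. MKI67, the proliferation antigen Ki-67, was at 123, 130.4 and 122 CPM in the vehicle libraries and 42.8, 40.1 and 34.3 CPM in the GNF-7 libraries (log2 fold change -1.68, SE 0.050, edgeR adjusted p 7.67e-33). Cycling cells held 509 ± 24.3 CPM, so senescent vehicle cells were already lower, and the GNF-7 libraries lay below both (difference of the 24 h and 6 h effects -1.30, edgeR adjusted p 1.18e-21). CDK1, the mitotic kinase, fell from 21.5 ± 1.90 to 5.88 ± 0.231 CPM (log2 fold change -1.88, SE 0.084). TOP2A, which untangles chromosomes, fell from 92.8 ± 4.03 to 34.8 ± 2.05 CPM (log2 fold change -1.41, SE 0.048), and MYBL2, a factor that drives mitotic genes, fell from 12.3 ± 0.611 to 2.51 ± 0.575 CPM (log2 fold change -2.29, SE 0.11). MCM10, which starts replication forks, fell from 9.65 ± 0.417 to 1.66 ± 0.290 CPM (log2 fold change -2.54, SE 0.13), CDC6, which loads the replicative helicase, fell from 15.7 ± 1.53 to 5.93 ± 0.477 CPM (log2 fold change -1.41, SE 0.092), and PCNA, the sliding clamp, fell from 151 ± 6.13 to 111 ± 4.97 CPM (log2 fold change -0.44, SE 0.041). The rises among replication genes were E2F7, a repressor of E2F targets, from 97.9 ± 0.963 to 195 ± 6.29 CPM (log2 fold change 1.00, SE 0.040), and FAM111A, a protease, from 36.9 ± 0.650 to 42.9 ± 1.33 CPM (log2 fold change 0.21, SE 0.056). Exons of FAM111A overlap another gene, and this count is uncertain to that degree.

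The promoters of these groups were searched in the same windows and on both strands for the E2F elements TTTCCCGC and TTTGGCGC and for TTTGAA, the core of the cell cycle homology region (CHR). An E2F element was in 52.9% of 34 replication promoters, against 3.57% of the genes tested and 2.31% of all promoters. TTTGAA was in 65.4% of 26 mitosis promoters, against 9.98% of the genes tested, 15.4% of all promoters and 20.8% of those of genes called at least 2-fold lower. The 5 stretches shown carry these elements in capitals, PCNA and E2F1 for E2F and CDK1, TOP2A and MKI67 for the CHR.
PCNA: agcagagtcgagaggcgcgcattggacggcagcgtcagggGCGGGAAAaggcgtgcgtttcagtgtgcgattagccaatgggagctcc
E2F1: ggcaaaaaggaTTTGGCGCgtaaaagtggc
CDK1: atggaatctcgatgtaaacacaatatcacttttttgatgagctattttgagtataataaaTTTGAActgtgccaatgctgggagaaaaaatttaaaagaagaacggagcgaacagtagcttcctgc
TOP2A: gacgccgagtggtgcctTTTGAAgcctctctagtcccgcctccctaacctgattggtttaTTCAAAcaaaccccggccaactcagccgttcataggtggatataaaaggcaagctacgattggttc
MKI67: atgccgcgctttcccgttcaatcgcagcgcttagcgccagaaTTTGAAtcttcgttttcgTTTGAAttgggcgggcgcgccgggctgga

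They lie at chr20:5126634-5126721, minus strand for PCNA, chr20:33686387-33686416, minus strand for E2F1, chr10:60778110-60778235, plus strand for CDK1, chr17:40417982-40418107, minus strand for TOP2A and chr10:128126424-128126512, minus strand for MKI67, again 5′ to 3′ on the strand of the gene. PCNA carries its element in the reverse form. TOP2A holds 1 copy of TTTGAA in each orientation, 194 and 151 bases before the start, and MKI67 holds 2 forward copies at 47 and 29 bases. E2F1 itself fell from 10.3 ± 0.842 to 5.79 ± 1.01 CPM (log2 fold change -0.84, SE 0.10). The sterol element TCACNCCAC was in 1 of 18 sterol promoters (SREBF2) in these windows, against 1.09% of the genes tested.

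p53 targets, which uncapped telomeres activate, moved in both directions. Of 25 genes 12 rose and 6 fell (29.3% and 29.7% of all genes), with a median of 0.07. When only genes averaging 5 CPM were tested 17 rose and 4 fell, with a median of 0.17. At 6 h 17 were higher and 1 lower, when 17.9% and 21.4% of all genes were. CDKN1A, the inhibitor p21 that holds senescent cells in arrest, was at 551, 559.5 and 569 CPM in the vehicle libraries and 468, 459 and 477 CPM in the GNF-7 libraries. It was lower with GNF-7 without overlap (log2 fold change -0.26, SE 0.034, edgeR adjusted p 1.31e-09). PLK2, a kinase induced by stress, was at 354, 321 and 332 CPM in the vehicle libraries and 81.9, 80.8 and 76.9 CPM in the GNF-7 libraries (log2 fold change -2.07, SE 0.040, edgeR adjusted p 7.63e-48), the largest fall of the list. MDM2, which degrades p53, rose from 712 ± 10.01 to 855 ± 40.5 CPM (log2 fold change 0.26, SE 0.035), and GADD45A, also an ATF4 target, rose from 147 ± 5.52 to 260.3 ± 8.63 CPM (log2 fold change 0.83, SE 0.040). Among hallmarks of senescence LMNB1, the nuclear lamin that senescent cells lose, fell further, from 32.04 ± 1.28 to 10.9 ± 0.405 CPM (log2 fold change -1.55, SE 0.067). CDKN2A and CDKN2B had 0 counts in all 6 libraries, a level that allows up to 3 counts a library. CDKN1A and MDM2 share exon sequence with a neighbouring gene, so their counts are uncertain.

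The secretome did not change as a unit. Only 7 of 18 chemokine genes passed the filter, and 3 fell and 1 rose (29.7% and 29.3% of all genes). CXCL8, or interleukin 8, fell from 6.67 ± 0.263 to 3.30 ± 0.294 CPM (log2 fold change -1.01, SE 0.13), whereas CXCL3 rose from 1.78 ± 0.337 to 4.24 ± 0.213 CPM (log2 fold change 1.24, SE 0.20). Of 16 cytokine and growth factor genes 5 rose and 8 fell (29.3% and 29.7% of all genes). When only genes averaging 5 CPM were tested 2 of 10 rose and 5 fell. IL6 was at 1.44, 1.27 and 1.01 CPM in the vehicle libraries and 3.94, 4.19 and 3.45 CPM in the GNF-7 libraries (log2 fold change 1.63, SE 0.20, edgeR adjusted p 1.39e-10). It was at 7.03 ± 0.866 CPM after 6 h of GNF-7 and at 3.85 ± 0.320 CPM in the matching vehicle, so the late GNF-7 level was near that of the early vehicle cells. IL1B, the inflammasome product, was at 168, 151 and 159 CPM in the vehicle libraries and 336, 360.2 and 344 CPM in the GNF-7 libraries (log2 fold change 1.12, SE 0.040, edgeR adjusted p 1.08e-33). CSF2 (GM-CSF) fell from 0.632 ± 0.151 to 0.111 ± 0.0519 CPM (log2 fold change -2.47, SE 0.58), TGFB2 fell from 32.3 ± 3.23 to 9.36 ± 0.859 CPM (log2 fold change -1.79, SE 0.083), and HBEGF, a ligand of the epidermal growth factor receptor, fell from 125 ± 4.28 to 55.3 ± 1.89 CPM (log2 fold change -1.18, SE 0.043). CXCL1 and IGFBP3, common members of the secretome, had 0 counts in all 6 libraries. Because IL6 and TGFB2 overlap exons of another annotated gene, their levels are uncertain.

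Protease genes were mostly lower, with 12 falls and 2 rises among 18 (29.7% and 29.3% of all genes). PLAU, the urokinase plasminogen activator, fell from 963 ± 73.8 to 609.9 ± 9.41 CPM (log2 fold change -0.66, SE 0.046), and MMP2, a gelatinase, fell from 227 ± 21.3 to 134 ± 6.72 CPM (log2 fold change -0.76, SE 0.058). MMP1, the interstitial collagenase, rose from 27.3 ± 1.14 to 68.1 ± 2.31 CPM (log2 fold change 1.31, SE 0.062). IGFBP6, which binds insulin-like growth factors, fell from 125 ± 10.9 to 68.8 ± 1.18 CPM (log2 fold change -0.86, SE 0.048). Exons of MMP1, MMP2 and PLAU overlap another gene, and these counts are uncertain to that degree.

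Matrix genes fell late. Of 27 genes 21 fell and 5 rose, with a median of -0.69 at 24 h and -0.12 at 6 h, and the difference was called lower for 19 and higher for 4. SPARC, or osteonectin, which binds collagen, was at 3472, 2999 and 3270.4 CPM in the vehicle libraries and 638, 602 and 628 CPM in the GNF-7 libraries (log2 fold change -2.38, SE 0.054, edgeR adjusted p 5.97e-19). Its 24 h effect was lower than the 6 h effect by a difference of -1.86 (edgeR adjusted p 5.02e-14). THBS1, or thrombospondin 1, was at 519.6, 445 and 482 CPM in the vehicle libraries and 63.5, 61.9 and 62.8 CPM in the GNF-7 libraries (log2 fold change -2.94, SE 0.070, edgeR adjusted p 1.10e-15). VCAN, a large proteoglycan that senescence had raised, fell from 21.3 ± 2.48 to 3.46 ± 1.01 CPM (log2 fold change -2.61, SE 0.12), and LRRC17, a secreted leucine-rich repeat protein, fell from 28.6 ± 2.09 to 3.90 ± 0.678 CPM (log2 fold change -2.87, SE 0.098). LUM, a small proteoglycan, fell from 1.26 ± 0.400 to 0.320 ± 0.224 CPM (log2 fold change -1.96, SE 0.46). The rises were collagen genes, COL7A1 for anchoring fibrils from 59.3 ± 8.48 to 104 ± 5.21 CPM (log2 fold change 0.82, SE 0.13), and COL6A2 (0.63), COL5A2 (0.54), COL6A3 (0.37) and COL6A1 (0.12) as log2 fold changes. The COL5A2 call was lost without vehicle replicate 1 (0.44) and the COL6A1 call without vehicle replicate 2 (0.083). COL7A1, LRRC17, SPARC, THBS1 and VCAN share exon sequence with a neighbouring gene, so their counts are uncertain.

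Targets of YAP and of the actin-responsive factor SRF fell in 18 of 20 cases (median -0.87, and -0.38 at 6 h). CCN1 and CCN2, matricellular proteins, are used to report YAP activity. CCN1 was at 376, 307 and 337 CPM in the vehicle libraries and 80.6, 75.7 and 81.7 CPM in the GNF-7 libraries (log2 fold change -2.10, SE 0.069, edgeR adjusted p 1.02e-13). CCN2 was at 164, 135 and 154 CPM in the vehicle libraries and 33.9, 29.2 and 32.6 CPM in the GNF-7 libraries (log2 fold change -2.25, SE 0.065, edgeR adjusted p 2.64e-19). Neither pair of groups overlapped. ANKRD1 fell from 52.8 ± 2.07 to 18.7 ± 1.74 CPM (log2 fold change -1.50, SE 0.057), ACTB, the cytoplasmic beta actin, fell from 3476 ± 97.3 to 1520.0 ± 46.3 CPM (log2 fold change -1.19, SE 0.034), and VCL, or vinculin, which links actin to adhesions, fell from 278 ± 2.51 to 107 ± 3.84 CPM (log2 fold change -1.39, SE 0.037). The rises were the smooth muscle genes ACTA2 from 77.3 ± 2.92 to 111 ± 2.81 CPM (log2 fold change 0.52, SE 0.046) and TAGLN from 3.19 ± 0.635 to 5.49 ± 0.118 CPM (log2 fold change 0.79, SE 0.18). Because ACTA2, CCN2, TAGLN and VCL overlap exons of another annotated gene, their levels are uncertain.

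In the BMP and activin pathway, in which KCP acts, 7 of 20 genes rose and 9 fell (29.3% and 29.7% of all genes). The ligand BMP7 rose from 0.421 ± 0.0629 to 1.75 ± 0.339 CPM (log2 fold change 2.05, SE 0.36) and BMP6 rose from 5.39 ± 0.647 to 11.1 ± 1.02 CPM (log2 fold change 1.03, SE 0.11). INHBA, the activin A subunit, fell from 8.85 ± 0.398 to 2.68 ± 0.343 CPM (log2 fold change -1.72, SE 0.13), after a value of 0.08 at 6 h that was not called (difference -1.80, edgeR adjusted p 1.01e-13). The receptor BMPR2 fell from 72.3 ± 4.08 to 45.3 ± 3.17 CPM (log2 fold change -0.68, SE 0.056). ID1 and ID3, direct targets that report BMP signalling, fell from 38.1 ± 1.78 to 23.2 ± 1.13 CPM (log2 fold change -0.71, SE 0.063) and from 96.7 ± 3.53 to 38.9 ± 0.529 CPM (log2 fold change -1.31, SE 0.047).

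Kinases of the classes that such inhibitors bind were mostly lower, with 11 falls and 3 rises of 18 (29.7% and 29.3% of all genes). When only genes averaging 5 CPM were tested 7 fell and 4 rose. MET, the hepatocyte growth factor receptor, fell from 343 ± 13.2 to 152 ± 6.13 CPM (log2 fold change -1.17, SE 0.039), AXL fell from 559 ± 12.7 to 344 ± 6.75 CPM (log2 fold change -0.70, SE 0.037), DDR2, a collagen receptor kinase, rose from 112 ± 1.80 to 279.5 ± 5.18 CPM (log2 fold change 1.31, SE 0.039), and FYN, a SRC-family kinase, rose from 68.2 ± 0.862 to 130.1 ± 7.04 CPM (log2 fold change 0.93, SE 0.047). Genes that report ERK output rose in 6 and fell in 7 of 19 cases, near the 29.3% and 29.7% of all genes. When only genes averaging 5 CPM were tested 10 rose and 5 fell, and the median of 0.09 became -0.013 without GNF-7 replicate 2. ETV5, an ERK-induced factor, rose from 50.8 ± 1.40 to 133 ± 1.45 CPM (log2 fold change 1.39, SE 0.044) and SPRY4, a feedback inhibitor, rose from 14.7 ± 2.23 to 24.8 ± 2.85 CPM (log2 fold change 0.76, SE 0.084), while CCND1, or cyclin D1, fell from 886 ± 1.93 to 445 ± 13.3 CPM (log2 fold change -0.99, SE 0.033). Of 18 immediate early genes 9 fell and 3 rose, with JUNB falling from 53.6 ± 3.83 to 29.8 ± 1.54 CPM (log2 fold change -0.85, SE 0.061) and NR4A1, an orphan nuclear receptor, rising from 2.37 ± 0.274 to 5.46 ± 0.145 CPM (log2 fold change 1.21, SE 0.16). Exons of AXL, CCND1, ETV5, JUNB and NR4A1 overlap another gene, and these counts are uncertain to that degree.

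Interferon-stimulated genes fell in 13 and rose in 6 of 29 cases (29.7% and 29.3% of all genes), with a median of -0.23. The other 10 were not called. GBP1, a guanylate-binding defence protein, fell from 13.6 ± 0.863 to 2.82 ± 0.566 CPM (log2 fold change -2.27, SE 0.11). IFI6 and IFIT1, which senescence had raised, fell from 87.6 ± 5.96 to 51.4 ± 4.89 CPM (log2 fold change -0.77, SE 0.067) and from 26.5 ± 4.68 to 16.5 ± 0.794 CPM (log2 fold change -0.68, SE 0.090). MX1, an antiviral GTPase, rose from 1.34 ± 0.158 to 4.50 ± 0.681 CPM (log2 fold change 1.74, SE 0.23), and STAT2, a carrier of the interferon signal, rose from 115 ± 3.91 to 177 ± 6.98 CPM (log2 fold change 0.62, SE 0.044). MX1 shares exon sequence with a neighbouring gene, so its count is uncertain.

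Lysosomal genes rose in 9 and fell in 11 of 28 cases, near the 29.3% and 29.7% of all genes, with a median of -0.06. When only genes averaging 5 CPM were tested 12 rose and 7 fell, with a median of 0.06, and with total counts or without vehicle replicate 1 it was 10 and 9. NPC1, which exports cholesterol from lysosomes, was at 322, 313 and 319 CPM in the vehicle libraries and 642, 617 and 631 CPM in the GNF-7 libraries (log2 fold change 0.99, SE 0.034, edgeR adjusted p 1.29e-34). It stood apart from the sterol synthesis genes in direction. The lysosomal regulator genes MITF and TFEB fell from 28.6 ± 1.72 to 7.60 ± 0.555 CPM (log2 fold change -1.91, SE 0.086) and from 18.03 ± 0.604 to 9.20 ± 1.38 CPM (log2 fold change -0.97, SE 0.094). Of 15 genes of that family and its targets 9 rose and 4 fell (29.3% and 29.7% of all genes). GPNMB, a melanosome and lysosome glycoprotein, rose from 73.6 ± 4.08 to 145 ± 4.23 CPM (log2 fold change 0.98, SE 0.048). RRAGD, a GTPase that recruits mTORC1, rose from 5.88 ± 0.722 to 10.9 ± 1.48 CPM (log2 fold change 0.90, SE 0.13). Among 20 proton pump subunits 6 rose and 10 fell. Of all genes 29.3% rose and 29.7% fell, and when only genes averaging 5 CPM were tested 8 subunits rose and 7 fell. ATP6V0D2 was at 4.82, 6.84 and 6.27 CPM in the vehicle libraries and 70.6, 70.5 and 68.7 CPM in the GNF-7 libraries (log2 fold change 3.56, SE 0.089, edgeR adjusted p 7.51e-42), while its ubiquitous counterpart ATP6V0D1 fell from 122 ± 1.85 to 99.4 ± 1.16 CPM (log2 fold change -0.30, SE 0.040) and ATP6V1A, the catalytic subunit, fell from 156 ± 2.63 to 85.3 ± 5.76 CPM (log2 fold change -0.87, SE 0.046). Because ATP6V0D2, ATP6V1A and NPC1 overlap exons of another annotated gene, their levels are uncertain.

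Autophagy genes rose in 11 and fell in 6 of 29 cases (29.3% and 29.7% of all genes), with a median of 0.04, equal to that of all genes, and of 0.13 when only genes averaging 5 CPM were tested. MAP1LC3B, the LC3 protein that coats autophagosomes, was at 149.7, 151 and 149.6 CPM in the vehicle libraries and 389.7, 363 and 388 CPM in the GNF-7 libraries (log2 fold change 1.34, SE 0.037, edgeR adjusted p 1.87e-39). SQSTM1 (p62), a cargo receptor, rose from 989 ± 14.9 to 1589.6 ± 22.7 CPM (log2 fold change 0.69, SE 0.033), CALCOCO2, another receptor, rose from 62.4 ± 1.91 to 115 ± 6.34 CPM (log2 fold change 0.88, SE 0.046), and WIPI1, which marks early membranes, rose from 35.2 ± 0.520 to 71.5 ± 1.83 CPM (log2 fold change 1.02, SE 0.060). ATG4A, which processes LC3 relatives, fell from 18.3 ± 2.15 to 10.1 ± 0.464 CPM (log2 fold change -0.86, SE 0.093), and ATG9A, the lipid scramblase, fell from 37.4 ± 1.78 to 24.3 ± 3.47 CPM (log2 fold change -0.63, SE 0.070). Exons of ATG9A, MAP1LC3B, SQSTM1 and WIPI1 overlap another gene, and these counts are uncertain to that degree.

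Genes of glycolysis fell in 18 and rose in 3 of 22 cases (29.7% and 29.3% of all genes), with a median of -0.44. LDHA, which turns pyruvate into lactate, was at 1751, 1637 and 1705 CPM in the vehicle libraries and 724, 702 and 717 CPM in the GNF-7 libraries (log2 fold change -1.25, SE 0.033, edgeR adjusted p 1.44e-40). The glucose transporter SLC2A1 fell from 269 ± 20.1 to 129 ± 5.11 CPM (log2 fold change -1.06, SE 0.044), whereas SLC2A3 rose from 53.6 ± 1.70 to 70.7 ± 3.46 CPM (log2 fold change 0.40, SE 0.048). LDHA has processed pseudogenes, and LDHAP3 and LDHAP7 among them fell by 1.57 and 1.56 on the log2 scale, so their reads may be shared. SLC2A1 shares exon sequence with a neighbouring gene, so its count is uncertain.

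Transcripts of the respiratory chain differed by genome of origin. Of 51 nuclear genes 41 fell and 0 rose (median -0.27), and when only genes averaging 5 CPM were tested 33 fell and 4 rose. Of 13 mitochondrially encoded protein genes 6 rose and 1 fell (median 0.25). MT-CO1, a cytochrome oxidase subunit, rose from 37595 ± 3899 to 53214 ± 1836 CPM (log2 fold change 0.50, SE 0.098), and MT-ND1, a subunit of complex I, rose from 6299 ± 878 to 10251 ± 297 CPM (log2 fold change 0.70, SE 0.13). The mitochondrial rRNA genes MT-RNR1 and MT-RNR2 rose by 1.10 and 1.17 on the log2 scale. ATP5F1B, the nuclear-encoded catalytic subunit of ATP synthase, fell from 639 ± 6.73 to 427 ± 4.82 CPM (log2 fold change -0.58, SE 0.034), and ATP5MC1 fell from 40.2 ± 0.869 to 19.3 ± 3.03 CPM (log2 fold change -1.06, SE 0.069). Nuclear copies of mitochondrial sequence could share reads with the mitochondrial genes.

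Cytosolic ribosomal protein genes rose by small amounts in 61 of 80 cases and fell in 4, with a median of 0.14. The number of rises was 48 with no filter (median 0.12) and 72 when only genes averaging 5 CPM were tested (median 0.24). At 6 h 13 were higher and 1 lower, when 17.9% and 21.4% of all genes were. RPL12 rose from 976 ± 13.4 to 1295 ± 56.2 CPM (log2 fold change 0.41, SE 0.034) and RPL37 rose from 566 ± 11.4 to 743 ± 28.3 CPM (log2 fold change 0.39, SE 0.034), while RPL22L1, a paralogue of RPL22, fell from 184 ± 6.96 to 157 ± 12.3 CPM (log2 fold change -0.23, SE 0.043) and RPS27L, a p53-induced paralogue of RPS27, fell from 254 ± 3.05 to 215 ± 7.32 CPM (log2 fold change -0.24, SE 0.036). These genes have many processed pseudogenes that could share their reads. Among 11 telomere genes besides the mutant's own, TERT, the telomerase reverse transcriptase, fell from 10.3 ± 0.526 to 5.41 ± 0.382 CPM (log2 fold change -0.93, SE 0.11), and ACD (TPP1), a shelterin subunit, rose from 21.99 ± 1.04 to 28.1 ± 1.08 CPM (log2 fold change 0.36, SE 0.068). Because ACD overlaps exons of another annotated gene, its level is uncertain.

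**Figure D4:**
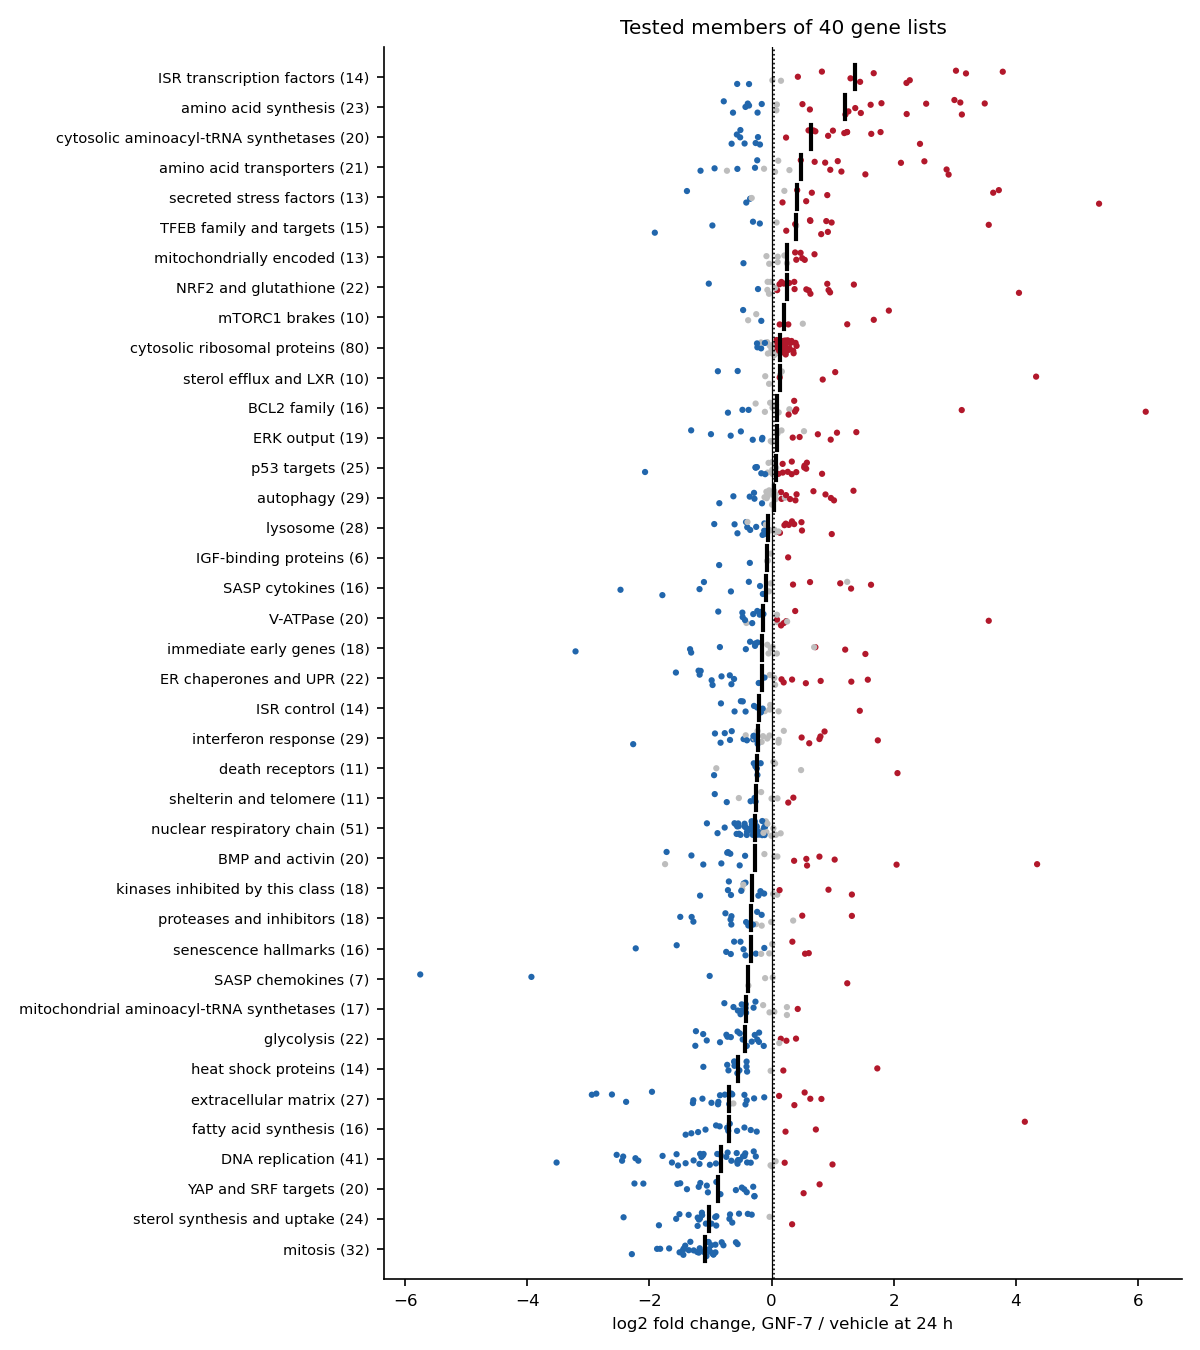
Each row is 1 of 40 gene lists with its number of tested members, each point the log2 fold change of a member at 24 h (red called higher, blue called lower, grey not called), each bar the median of the list, and the dotted line the median of all genes at 0.04. The medians of mitosis, sterol synthesis, YAP and SRF targets and DNA replication lie farthest to the left and those of ISR transcription factors and amino acid synthesis farthest to the right, and the point of the BCL2 family at the far right is HRK, whose vehicle libraries held 1, 2 and 0 counts.

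The 24 h and 6 h effects were then compared, using different libraries at each time. At 6 h 39.3% of genes were called, and the difference between the times was called for 30.8% of genes, where the effect was higher at 24 h for 12.8% and lower for 18.0%. Of the 2644 genes called with at least a 2-fold change at 24 h, 1295 had a larger effect at 24 h than at 6 h by the test of the difference and 11 a smaller one. Of 4994 genes called at 24 h and not at 6 h, the difference itself was called for 2451, so the others cannot be said to be late. The groups differed in timing. ISR transcription factors had medians of 1.33 and 1.37 at 6 h and 24 h and amino acid synthesis genes 0.80 and 1.21. The difference was still called higher for 7 and lower for 1 of the 14 ISR factors, with a median difference of 0.27. For the 23 amino acid synthesis genes it was called higher for 8 and lower for 6. Sterol genes had medians of -0.02 and -1.03, mitosis genes -0.25 and -1.09, and matrix genes -0.12 and -0.69.

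Among the 319 genes called at both times in opposite directions, a few had large changes at 24 h. EPB41L5, which remodels adhesions, fell at 6 h (-0.44) and rose at 24 h from 5.53 ± 0.219 to 12.2 ± 0.270 CPM (log2 fold change 1.14, SE 0.13). PDK2, a kinase that restrains pyruvate dehydrogenase, was lower at 6 h (-1.12) and higher at 24 h (0.34). In the other direction RBMS3, an RNA-binding protein, rose at 6 h (0.37) and fell at 24 h from 11.4 ± 1.52 to 3.34 ± 0.390 CPM (log2 fold change -1.77, SE 0.13). PLCB4, a phospholipase, was higher at 6 h (0.53) and fell at 24 h from 47.6 ± 2.74 to 19.1 ± 1.54 CPM (log2 fold change -1.32, SE 0.063), as did GALNT15, a glycosyltransferase, with 0.46 and -1.50. Exons of EPB41L5, PDK2 and RBMS3 overlap another gene, and these counts are uncertain to that degree.

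**Figure D5:**
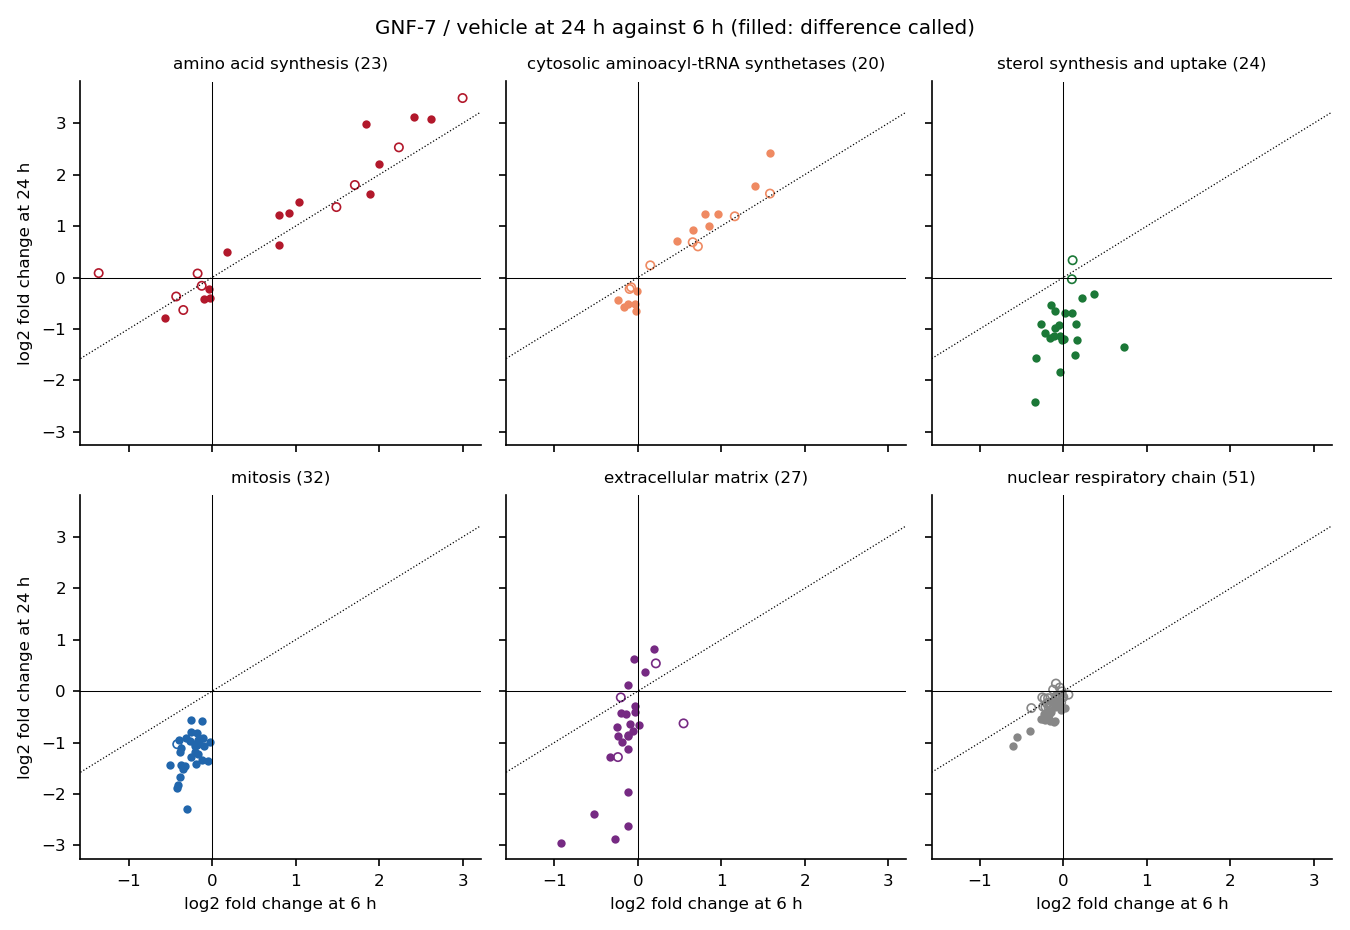
Each point is a tested member of 1 of 6 gene lists, with its log2 fold change of GNF-7 over vehicle at 6 h on the x axis and at 24 h on the y axis, filled where the difference of these effects was called, and the dotted line marks equal effects. Amino acid synthesis and cytosolic synthetase genes mostly lie near the line, many of them filled, whereas 22 of 24 sterol genes and 31 of 32 mitosis genes are filled and lie below it.

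The late response was also set beside the change that senescence itself made, measured between senescent and cycling cells in vehicle at 6 h, which shares no library with the 24 h comparison. In that comparison 70.0% of genes were called. Of 3434 genes that senescence raised at least 2-fold, GNF-7 at 24 h raised 49.5% further and lowered 9.93%, against 29.3% and 29.7% of all genes, with a median log2 fold change of 0.61. Of 1404 genes that senescence lowered at least 2-fold, GNF-7 lowered 56.1% further and raised 12.9%, with a median of -0.37. More genes thus moved in the direction of senescence than against it. These shares were not split by level or gene type, by which the balance of rises and falls differed above.

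Some genes went against it. Besides CCL2, VCAN and PIK3R3, the genes at a mean of at least 5 CPM raised in senescence with the largest falls at 24 h were PDE7B, a phosphodiesterase, from 10.5 ± 1.43 to 2.06 ± 0.107 CPM (log2 fold change -2.35, SE 0.14), SLC2A12, a glucose transporter, from 33.3 ± 1.81 to 6.71 ± 0.884 CPM (log2 fold change -2.31, SE 0.086), and TGFB3, from 14.3 ± 0.579 to 3.32 ± 0.108 CPM (log2 fold change -2.10, SE 0.12). At the same level, genes lowered in senescence with the largest rises were OSCAR, PSAT1, PHGDH, ARHGAP9, PCK2 and SLC1A4, while INHBE, also lowered in senescence (-3.49), rose more from a lower level. Cycling cells held PSAT1 at 233 ± 2.43 CPM and vehicle-treated senescent cells at 59.2 ± 0.532 CPM at 6 h, so its 24 h GNF-7 level of 413 CPM was above both. PHGDH was at 126 ± 3.85 CPM in cycling cells, also below its late GNF-7 level of 237 CPM. ARHGAP9, a GTPase regulator, rose from 1.59 ± 0.334 to 12.3 ± 0.854 CPM (log2 fold change 2.96, SE 0.16). ARHGAP9, PDE7B, SLC2A12 and TGFB3 share exon sequence with a neighbouring gene, so their counts are uncertain.

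Several genes were near 0 in 1 of the 24 h groups. They were picked for at most 3 counts in each library of that group and the highest means in the other. Large ratios thus follow from the choice and were not tested. Besides HRK, LCN1, a lipocalin, had 51, 49 and 53 counts with GNF-7 and 0, 1 and 0 in vehicle, a ratio of 144 (95% interval 25.5 to 5727). GPR84, a fatty acid receptor of immune cells, had 33, 53 and 34 counts against 0, 2 and 3 (ratio 22.6, 9.42 to 70.9), and the antisense RUNX3-AS1 64, 85 and 84 against 3, 3 and 1 (ratio 31.3, 14.97 to 78.8). OR2A20P, a pseudogene of an olfactory receptor, had 47, 31 and 33 counts against 0 in each vehicle library and was at least 11.6-fold higher, taking 3 counts in each vehicle library as the limit. In the other direction KRT32, a hair keratin, had 11, 17 and 19 counts in vehicle and 0, 1 and 1 with GNF-7, a ratio of 25.0 (6.54 to 212). These intervals cover counting error only, and all levels were under 3 CPM.

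Among noncoding genes at a mean of at least 5 CPM, LINC01081 rose from 0.204 ± 0.0950 to 10.7 ± 0.681 CPM (log2 fold change 5.72, SE 0.27). LINC02298 rose from 1.06 ± 0.252 to 10.6 ± 0.793 CPM (log2 fold change 3.30, SE 0.19) after a value of -0.28 at 6 h, the largest rise of the effect between the times among the genes called at that level. LINC00472 fell from 20.6 ± 0.707 to 7.49 ± 0.401 CPM (log2 fold change -1.46, SE 0.093). Because LINC00472 overlaps exons of another annotated gene, its level is uncertain.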

How the data were processed

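Gene expression was measured in 15 libraries by RNA sequencing with a strand-preserving kit for mRNA, per the labels' protocols. The values deposited by the authors are unnormalized counts for each Ensembl identifier, in a single table. The submitters' processing notes name bcl2fastq 2.20.0.422, STAR 2.7.9a, featureCounts 1.5.1 and GRCh38. The annotation and the strand setting of the counting are not given in the sources used here, so counts of overlapping and antisense genes are uncertain. Of 60673 lines 3 were left out, since they hold 1 broken entry (ANK2) with at most 0.00475% of a library. Names came from a name table (99.6% of 60670 identifiers) and coordinates, types and overlaps from GENCODE 29 on GRCh38.

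Library totals were 25991007 to 32323393 counts. Counts were tested with edgeR 4.0.16 (R 4.3.3; filterByExpr, TMM, robust quasi-likelihood fit over 5 groups of 3 libraries, no replicate block), with Benjamini-Hochberg adjustment over 18563 genes. CPM use TMM-scaled library sizes, SD is over 3 libraries, and the standard error (SE) is the log2 fold change divided by the square root of F. The biological coefficient of variation was 4.64%. Single shares were compared by exact permutation tests with SciPy 1.17.1. Alternatives were RLE size factors, total counts, scaling to nuclear genes, every gene with a count, only genes averaging 5 CPM, DESeq2 1.42.0, limma voom 3.58.1, fitting the compared groups alone, a replicate block and leaving out each library. On simulated counts of 17933 genes for the 24 h comparison edgeR recovered 185 of 200 genes changed 2-fold, with 5 false calls. The simulation changed few genes, equally many up and down, whereas 58.9% of genes were called in the data. Its number of false calls therefore does not carry over to these data. Libraries of a group differed by more than sampling noise (chi-square per degree of freedom 3.35 to 12.7), so none was counted as a copy. Same-numbered vehicle and GNF-7 libraries at 24 h deviated together weakly (correlations 0.159, 0.128 and 0.105, each over 0.1). At 6 h the correlations were 0.105, 0.184 and -0.069. The labels give no pairing, and whether the replicate numbers pair these libraries was not tested. The main tests leave such pairing out, and the replicate block is given among the alternatives.

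The comparison, the 44 gene lists and the rules for naming genes were chosen with earlier results of these data known. Lists are described by counts and medians and were not tested. Genes named were the 4 marker genes, TERF2 and EIF2AK4, the 12 largest rises and falls among protein-coding genes and the 4 among other genes at a mean of at least 5 CPM, in each list its preset key members, the 3 smallest p and the 2 largest changes against its direction, the largest differences between the times and opposite directions, the largest changes against senescence at that mean, and genes at up to 3 counts in one group. The largest rises and falls were taken among called genes whose 24 h groups did not overlap. Not every such gene is used here. APOE, AXL, CASP8, COL5A2, COL6A1, COL6A3, CSF2, EIF2AK1, EIF2AK2, EIF2AK3, ELOVL6, GCLC, GPAM, KARS1, LUM, MT-RNR1, MT-RNR2, OSGIN1, RARS1 and VARS1 were chosen after their values were seen. Promoters are from RefSeq (GRCh38.p14), which matched 12117 of the genes tested.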

Additional observations from a re-analysis of the deposited data

Results flagged for a closer look

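The test of the difference between the effects of GNF-7 at 24 h and at 6 h called 5723 genes, edgeR adjusted p under 0.05, and the genes above for which a difference is given were among them. The difference was 0.64 for CHAC1, -0.55 for DDIT4 and -0.90 for the BH3-only gene BCL2L11. The stress genes FTH1 and HSPA1A had differences of 0.69 and 0.77. In the sterol pathway INSIG1 had a difference of -2.08, from a rise at 6 h to a fall at 24 h. MKI67 had a difference of -1.30, SPARC of -1.86 and INHBA of -1.80. Each is on the log2 scale, 24 h minus 6 h.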

How the results depend on the processing

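The number of genes called at 24 h was 10940, and 8142 to 11031 under the alternatives with all libraries, the lowest when only the 11234 genes averaging 5 CPM were tested. In that fit 489 in place of 1917 genes rose and 377 in place of 727 fell by at least 2-fold, since fewer genes were tested and the scaling shifted by 0.10. Without each library in turn the 3 counts were 10109 to 10504, 1756 to 1954 and 724 to 754. The number called for the difference of the times was 5723 (5172 to 5750.0 without a library), at 6 h 7286 (6339 to 6804) and in senescence 12999 (12381 to 12522). The difference in mitochondrial share was 6.36 points, 5.45 to 7.25 without a library and 4.50 for protein genes only. With the replicate block 11031 genes were called at 24 h, 10896 of them called in the same direction without it, and no gene named above changed its call. Of the genes named above, APOE, CASP8, COL5A2, COL6A1, EIF2AK4, GPAM, SESN1, SESN3, TM7SF2 and TNFRSF10A lost their calls and EIF2AK2 gained one under some alternative, as given with them. EIF2AK1, uncalled at -0.03, was at 0.068 in the fit of genes averaging 5 CPM. The median of IGF-binding proteins became 0.03 in place of -0.07 and that of the lysosome list 0.06 in place of -0.06 in the same fit. Genes with few counts in one group have wide intervals at this depth.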
